A study of Mus musculus with 6 samples.

Results

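The mitosis genes of dividing crypt cells are 45 genes for mitotic kinases, cyclins, spindle and kinetochore proteins, condensins and cytokinesis proteins. They were chosen by gene symbol, and all 45 were found among the 28564 genes of the count table through their Ensembl identifiers. All of them also passed the filter on low counts that left 15122 genes for testing. RNA was sequenced from crypt epithelium of the mouse small intestine, sorted from live single cells as EpCAM+ and CD44+ with CD31 and CD45 negative. The study had 3 Apln-/- samples, called knockout here, which lack the gene of the secreted peptide apelin, and 3 wild-type controls (C57Bl/6). All mice were male and aged 13 weeks. The comparison asks how the crypt transcriptome differs without apelin. The genotype is written as a plain Apln-/-, with no further detail of the allele. The labels do not say whether the wild-type mice were littermates.

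Mitosis is driven by cyclin-dependent kinase 1 bound to cyclins A and B. Its genes are transcribed late in the cell cycle. Many of their promoters share CCAAT boxes and a short element called CHR, which is read by the DREAM, B-MYB and FOXM1 complexes. In the crypt, the transit-amplifying cells and the stem cells divide rapidly, while Paneth cells and other mature secretory cells do not, so these transcripts mark the dividing part of the sorted population. In a bulk sample, fewer dividing cells and less RNA of these genes per cell cannot be told apart.

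The libraries held 5144725 to 5623112 counts per knockout and 6037237 to 7616648 per wild-type library outside the 5 entries with most counts, among them the mitochondrial rRNA genes. Apln had 0, 0 and 0 counts in knockout libraries 1, 2 and 3, against 29, 7 and 5 in wild-type libraries 1, 2 and 3. The labels do not say which stretch of Apln was removed, so these low counts are a weak check of the genotype. Epcam averaged 310 ± 24.6 CPM in knockout and 294 ± 12.9 CPM in wild type, and Cd44 62.2 ± 9.48 and 57.5 ± 5.61 CPM (SD, n = 3 each). CPM is the count scaled to a common library size, here the TMM-scaled total. The wild-type libraries were less alike than the knockout libraries: Pearson's r between libraries over all tested genes was 0.955 to 0.964 among knockout libraries, 0.915 to 0.941 between the groups and 0.910 to 0.922 among wild-type libraries. For that reason results that turn on 1 library are also given without it.

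As a group, the mitosis genes did not move in 1 direction between knockout and wild type, but single members differed in opposite directions. Mki67, which encodes the proliferation marker Ki-67, was 1.76-fold lower in knockout, and Aurka, which encodes the spindle pole kinase Aurora A, was 1.65-fold higher. Genes with long coding sequences tended to be lower and those with short ones higher, in the module and over all genes with a coding sequence. Spearman's rho of log2 fold change with coding length was -0.56 in the module and -0.34 over all these genes. Coding length was chosen after the lengths were seen, and median transcript length gave only -0.06 over the members. The median log2 fold change of the 45 members was -0.06, with quartiles at -0.24 and 0.15, beside a median of -0.01 over all 15122 genes tested. A negative log2 fold change was seen for 25 of 45 members, and for 50.5% of all genes tested. Of the 45 members 0 passed edgeR's quasi-likelihood test at a Benjamini-Hochberg adjusted p under 0.05, in either direction, where 0.112% of all tested genes were called higher and 0.0595% lower. At an unadjusted p under 0.05, edgeR gave 5 members lower, against 7.66% of all tested genes, and 1 higher, against 7.53%. The 5 were Mki67, Cenpf, Racgap1, Bub1b and Hjurp, and the 1 was Aurka. The groups did not overlap for 10 members. In 6 of these all knockout libraries lay below all wild-type libraries, where 9.56% of tested genes did so, and in 4 they lay above, where 11.3% did so. These are 13.3% and 8.89% of the members, close to the shares over all genes.

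Mki67 (ENSMUSG00000031004, chromosome 7, 135689784 to 135716361, minus strand of mm10) encodes a protein that coats mitotic chromosomes and is used to count dividing cells. It had 168, 234 and 202 CPM in knockout libraries 1, 2 and 3, against 312, 404 and 348 CPM in wild-type libraries 1, 2 and 3. The groups did not overlap, and the highest knockout library stayed below the lowest wild-type library. The means were 201 ± 32.9 CPM in knockout and 355 ± 46.0 CPM in wild type (SD, n = 3 each). The log2 fold change was -0.82 ± 0.17 (SE), and edgeR's adjusted p was 0.0628, just above the threshold. Other settings put it on the other side of the threshold: the adjusted p was 0.0449 with a filter of 1 CPM in 3 libraries, 0.0403 with limma-voom, 0.000106 with the DESeq2 Wald test and 0.000515 with no filter. Without wild-type library 3 the edgeR adjusted p was 0.0419, and without each of the other libraries in turn it lay between 0.111 and 0.400.

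Aurka (ENSMUSG00000027496, chromosome 2, 172356190 to 172370535, minus strand of mm10) had 14.2, 14.6 and 13.8 CPM in knockout libraries 1, 2 and 3, against 10.4, 8.61 and 6.78 CPM in wild-type libraries 1, 2 and 3. All knockout libraries lay above all wild-type libraries, and the knockout values were close together. The means were 14.2 ± 0.415 CPM in knockout and 8.61 ± 1.83 CPM in wild type (SD, n = 3 each), a log2 fold change of 0.72 ± 0.20 (SE). The adjusted p of 0.132 in edgeR's test did not pass, and the DESeq2 Wald test gave 0.0454. The ratio of Mki67 to Aurka CPM was 11.9, 16.1 and 14.7 in knockout libraries 1, 2 and 3, against 29.9, 46.9 and 51.4 in wild-type libraries 1, 2 and 3. Its separation follows from that of both genes and adds nothing to it.

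**Figure D1:**
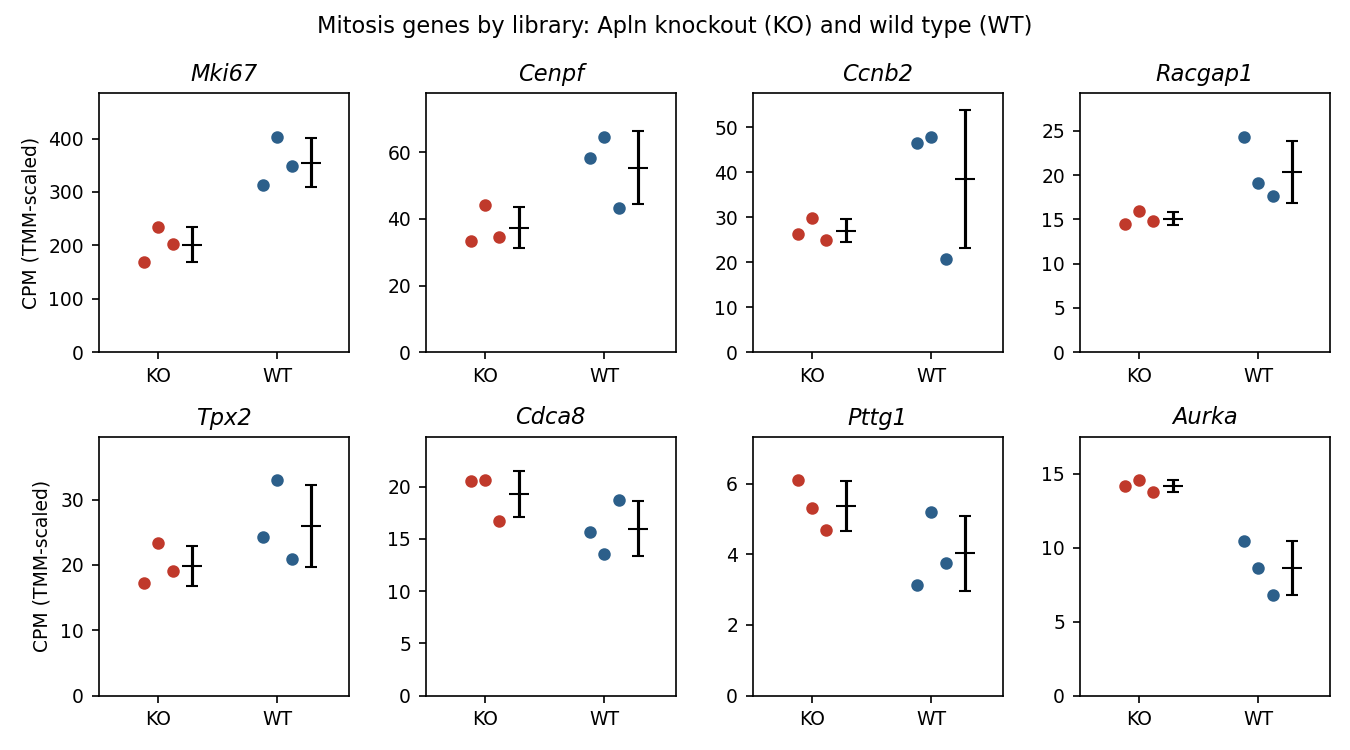
TMM-scaled CPM of 8 mitosis genes in each library, with the 3 knockout (KO) libraries as red and the 3 wild-type (WT) libraries as blue points in order of their number, and the group mean with its SD in black. Mki67 and Racgap1 are lower and Aurka is higher in every KO library than in every WT library, while the groups overlap for the others.

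The promoters of Mki67 and Aurka are shown because both hold the motifs described here although the genes lay at opposite ends of the module, and those of Ccnb2 and Cdk1 because these partners in the mitotic kinase also differed in sign. Each window runs from 250 bases before to 50 bases after the annotated start (RefSeq, GRCm38.p6), read 5′ to 3′ on the minus strand, with matches to TTTGAA, the core of the CHR, and to CCAAT in capitals, on either strand (as TTCAAA and ATTGG on the other). The windows are chr7:135716330-135716629 for Mki67, chr2:172370521-172370820 for Aurka, chr9:70421505-70421804 for Ccnb2 and chr10:69352863-69353162 for Cdk1.
Mki67: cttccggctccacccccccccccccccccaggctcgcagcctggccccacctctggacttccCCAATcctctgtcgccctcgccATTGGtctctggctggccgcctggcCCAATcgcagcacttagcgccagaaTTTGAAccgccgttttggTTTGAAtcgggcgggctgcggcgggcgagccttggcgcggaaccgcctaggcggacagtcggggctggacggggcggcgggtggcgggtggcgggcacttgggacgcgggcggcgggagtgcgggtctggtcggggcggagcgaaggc
Aurka: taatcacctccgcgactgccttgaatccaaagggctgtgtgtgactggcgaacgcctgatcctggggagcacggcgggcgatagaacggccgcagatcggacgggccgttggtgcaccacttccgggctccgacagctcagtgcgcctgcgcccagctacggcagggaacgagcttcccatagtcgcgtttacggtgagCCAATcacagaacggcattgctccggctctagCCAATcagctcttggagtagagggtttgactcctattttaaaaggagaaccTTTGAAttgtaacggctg
Ccnb2: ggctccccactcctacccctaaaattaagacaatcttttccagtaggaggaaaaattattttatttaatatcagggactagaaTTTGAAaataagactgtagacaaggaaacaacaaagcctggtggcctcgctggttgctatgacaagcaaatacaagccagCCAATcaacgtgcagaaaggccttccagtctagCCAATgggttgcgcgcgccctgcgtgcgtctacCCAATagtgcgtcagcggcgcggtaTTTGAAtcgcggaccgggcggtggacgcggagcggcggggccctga
Cdk1: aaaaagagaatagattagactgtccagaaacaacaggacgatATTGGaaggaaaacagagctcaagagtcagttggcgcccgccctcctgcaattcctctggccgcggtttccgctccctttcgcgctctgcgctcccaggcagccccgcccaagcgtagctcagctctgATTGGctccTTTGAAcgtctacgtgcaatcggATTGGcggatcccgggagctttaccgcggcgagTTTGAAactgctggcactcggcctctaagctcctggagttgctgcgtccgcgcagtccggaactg

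Both motifs stood in all 4 of these windows. Windows of RefSeq were matched for 38 of the 45 members. TTTGAA was found in 30 of the 38 and in 18.1% of 27025 promoters of the same length, 1 per gene. CCAAT was found in 28 of the 38 and in 37.9% of all promoters, and both together in 25 of the 38 and in 7.12% of all. A match is a description of letters and not evidence of a bound site. Of the 30 members with TTTGAA, 18 had a negative log2 fold change and the median was -0.12. Of the 8 members without it, 2 had a negative value and the median was 0.23. This difference was not tested, since members are not replicates. Of the 8, Birc5, Pttg1, Mad2l1, Nusap1, Ccnb1 and Nuf2 had coding sequences of 420 to 1389 nucleotides, under the module's median of 2382. Bub1 and Cenpe had longer ones, of 3177 and 7413 nucleotides. The split by motif was therefore not separated from coding length. The members not matched were Ccna2, Cdc25c, Aurkb, Incenp, Tpx2, Smc4 and Kif20a.

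Among the cyclins and the control of the cyclin-dependent kinase, 0 of 5 members passed at an unadjusted p under 0.05, and the signs were mixed. Ccnb2 (ENSMUSG00000032218, chromosome 9, 70407692 to 70421547, minus strand of mm10), which encodes cyclin B2, had 26.2, 29.9 and 24.95 CPM in knockout libraries 1, 2 and 3, against 46.5, 47.9 and 20.7 CPM in wild-type libraries 1, 2 and 3. Wild-type library 3 was the lowest of all 6, so the groups overlapped. The log2 fold change was -0.51 ± 0.26 (SE; adjusted p = 0.386 in edgeR's test). Without wild-type library 3 it was -0.80, with an adjusted p of 0.0265 in the same test. Cdk1, the gene of the kinase itself, averaged 16.4 ± 0.919 CPM in knockout and 13.0 ± 1.74 CPM in wild type (SD, n = 3 each), with no overlap between the groups and an adjusted p of 0.400. Ccnb1 (cyclin B1) had a log2 fold change of 0.21 ± 0.27, Ccna2 (cyclin A2) of 0.10 ± 0.20 and Cdc25c, the phosphatase gene that activates the kinase, of -0.06 ± 0.25 (SE). The B-type cyclins thus had opposite signs, and neither passed.

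The mitotic kinases apart from Aurka lay on both sides of 0. Bub1b encodes the checkpoint protein BubR1. It averaged 17.9 ± 1.88 CPM in knockout and 23.7 ± 1.587 CPM in wild type (SD, n = 3 each) without overlap, and its adjusted p was 0.257. Bub1, a checkpoint kinase gene, had 15.2, 22.7 and 13.7 CPM in knockout libraries 1, 2 and 3, against 11.2, 18.6 and 7.57 CPM in wild-type libraries 1, 2 and 3. The groups overlapped, and the spread within each group was wide. Plk1, the Polo-like kinase gene, had a log2 fold change of -0.14 ± 0.22 and Ttk, the checkpoint kinase Mps1, of -0.13 ± 0.20 (SE), both smaller than their errors.

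The chromosomal passenger complex corrects the attachment of chromosomes to the spindle. Cdca8 (ENSMUSG00000028873, chromosome 4, 124918465 to 124939311, minus strand of mm10) encodes its subunit borealin and had the lowest p of the 4 members. It had 20.5, 20.6 and 16.7 CPM in knockout libraries 1, 2 and 3, against 15.6, 13.6 and 18.8 CPM in wild-type libraries 1, 2 and 3. The groups overlapped, and the log2 fold change was 0.27 ± 0.18 (SE; adjusted p = 0.527 in edgeR's test). Birc5 (survivin) had a log2 fold change of 0.25 ± 0.19 and the kinase gene Aurkb of 0.05 ± 0.16. Incenp, the scaffold of the complex and the longest of the 4 in coding sequence, had one of -0.24 ± 0.17 (SE) with no overlap between the groups.

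Centromere and kinetochore genes held both some long members with low values and some short members with high values. Cenpf (ENSMUSG00000026605, chromosome 1, 189640606 to 189688086, minus strand of mm10) encodes a large kinetochore protein and has the longest annotated transcript of the module, 11130 nucleotides. It had 33.2, 44.3 and 34.6 CPM in knockout libraries 1, 2 and 3, against 58.4, 64.7 and 43.1 CPM in wild-type libraries 1, 2 and 3. Knockout library 2 lay just above wild-type library 3, so the groups overlapped by 1 library each. The log2 fold change was -0.57 ± 0.18 (SE), and its adjusted p was 0.175 in edgeR's test and 0.0489 in the DESeq2 Wald test. Cenpe, a kinesin motor of the kinetochore, had a log2 fold change of -0.36 ± 0.17, and Hjurp, which loads the centromeric histone, had one of -0.35 ± 0.15 with no overlap. Cenpa, the gene of that histone, has a coding sequence of only 402 nucleotides and went the other way. It averaged 22.1 ± 0.281 CPM in knockout and 17.6 ± 0.924 CPM in wild type (SD, n = 3 each) without overlap, with a log2 fold change of 0.33 ± 0.15 and an adjusted p of 0.336. Mad2l1, the checkpoint gene for Mad2, had a log2 fold change of 0.43 ± 0.20 (adjusted p = 0.342 in edgeR's test). Knl1, Nuf2 and Ndc80, which encode parts of the outer kinetochore that bind microtubules, lay between -0.11 and 0.02.

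Spindle genes and kinesins had 5 of 8 members below 0, and 0 at an unadjusted p under 0.05. Tpx2 (ENSMUSG00000027469, chromosome 2, 152847964 to 152895321, plus strand of mm10) encodes the activator of Aurora A on the spindle. It had 17.3, 23.3 and 19.1 CPM in knockout libraries 1, 2 and 3, against 24.2, 33.0 and 20.8 CPM in wild-type libraries 1, 2 and 3. The groups overlapped, and the log2 fold change was -0.39 ± 0.20 (SE; adjusted p = 0.385), the opposite sign to that of Aurka. Aspm, a spindle pole gene with a coding sequence of 9366 nucleotides, had a log2 fold change of -0.31 ± 0.18. The kinesin genes Kif4, Kif15 and Kif20b had values of -0.26, -0.22 and -0.17. Kif11, the motor that separates the spindle poles, had 0.22 ± 0.14 (SE) without overlap between the groups, and Nusap1 and Hmmr had 0.13 and 0.24.

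Genes of chromosome structure other than Mki67 lay between -0.30 and 0.06 on the log2 fold change scale. Smc2, Smc4 and Ncapd2 encode condensin subunits, which compact chromosomes, and had log2 fold changes of -0.21, -0.24 and -0.30. Ncapg, another condensin subunit gene, had 0.01. Top2a, the topoisomerase that untangles sister chromatids and another common marker of dividing cells, averaged 135 ± 10.2 CPM in knockout and 130 ± 3.83 CPM in wild type (SD, n = 3 each). Its log2 fold change was 0.06 ± 0.14 (SE), so Mki67 and Top2a, both used as proliferation markers, gave different values in the same libraries. No test was made of the difference between them.

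In the central spindle, which guides cytokinesis, Racgap1 (ENSMUSG00000023015, chromosome 15, 99620496 to 99651656, minus strand of mm10) encodes the GTPase-activating subunit of centralspindlin. It had 14.5, 16.0 and 14.8 CPM in knockout libraries 1, 2 and 3, against 24.4, 19.1 and 17.6 CPM in wild-type libraries 1, 2 and 3. All knockout libraries lay below all wild-type libraries. The log2 fold change was -0.43 ± 0.18 (SE; adjusted p = 0.274 in edgeR's test). Its partner Kif23 had -0.11 ± 0.16, and Kif20a, Prc1, Ect2 and Anln lay between -0.22 and 0.15. The genes of mitotic exit also spanned 0. Pttg1 (ENSMUSG00000020415, chromosome 11, 43420250 to 43426251, minus strand of mm10) encodes securin, which keeps sister chromatids from being separated before anaphase. It had 6.10, 5.31 and 4.68 CPM in knockout libraries 1, 2 and 3, against 3.13, 5.20 and 3.75 CPM in wild-type libraries 1, 2 and 3, with overlap between the groups and an edgeR adjusted p of 0.531. Cdc20 and Ube2c, an activator and a conjugating enzyme of the anaphase-promoting complex, had log2 fold changes of -0.18 ± 0.21 and -0.03 ± 0.19 (SE).

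**Figure D2:**
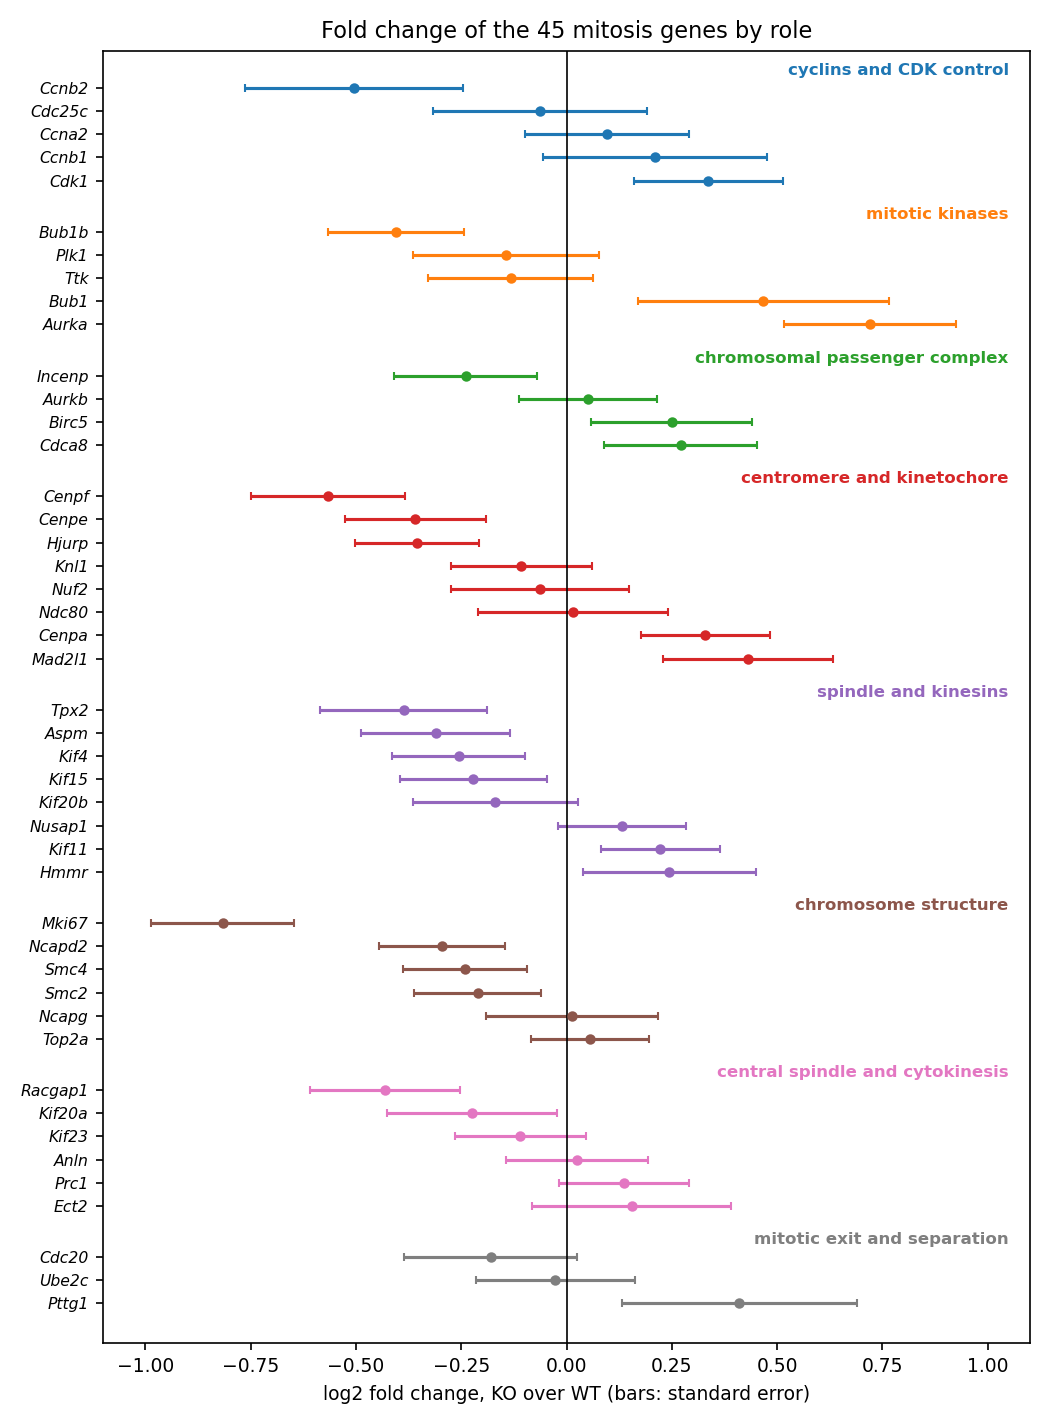
Log2 fold change of each of the 45 mitosis genes, KO over WT, on the horizontal axis, with its standard error as bar, grouped by role. Each role has members on both sides of 0, from -0.82 for Mki67 to 0.72 for Aurka.

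Exons of 13 members overlap exons of another annotated gene, and the labels do not state how the authors' counting treated strand and shared reads. Counts of Ncapd2, Kif4, Kif20a, Cdc20, Plk1, Cdc25c, Ube2c, Ncapg, Top2a, Ccna2, Nusap1, Prc1 and Cdca8 are uncertain to that extent. Mki67, Aurka, Cenpf, Ccnb2, Tpx2, Racgap1 and Pttg1 have no such overlap.

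The fold change followed length within the module. The longest annotated transcript was 10061 nucleotides for Mki67 and 1905 for Aurka, and the longest coding sequence 9531 and 1251 nucleotides. Over the 45 members Spearman's rho between log2 fold change and the longest annotated transcript was -0.36 (Pearson's r with log10 length -0.38), and over 15116 genes tested it was -0.26 (-0.21). The longest annotated form can be far longer than the coding sequence, with 7557, 3806 and 4375 nucleotides for Mad2l1, Cenpa and Cdk1, whose coding sequences have 615, 402 and 891. Which form these cells express cannot be read from counts per gene. With coding length, a measure chosen after these lengths were seen, rho was -0.56 over the 45 members (r = -0.60) and -0.34 over 12034 genes with a coding sequence (r = -0.28). Without Mki67 it was -0.53 over 44 members. With the median transcript length of each gene, however, rho was only -0.06 over the members and -0.15 over all genes. These are correlations over genes that share the same 6 libraries, not over independent replicates.

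All tested genes with a coding sequence were divided into 8 equal bins of coding length, and their median log2 fold change declined from bin to bin, 0.28 in the shortest and -0.24 in the longest. In the longest bin, from 3198 nucleotides on, the 13 members had a median of -0.24, the same as the 1505 genes of the bin, and 11 of the 13 were below 0. Mki67 lay well under the median of this bin, but 95 of the 1505 genes (6.31%) were lower still. Cenpf, Cenpe and Aspm, which follow Mki67 among the longest coding sequences of the module, lay at -0.57, -0.36 and -0.31. Aurka belonged to the fourth bin, 1116 to 1401 nucleotides, where the median of all genes was 0.01 and 88 of 1505 genes (5.85%) were higher. Ccnb2, of the same bin, had the opposite sign, so coding length did not order this pair. In the 3 shortest bins the 8 members had bin medians of 0.25, 0.42 and 0.27, beside 0.28, 0.15 and 0.09 over all genes, and only Ube2c was below 0.

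**Figure D3:**
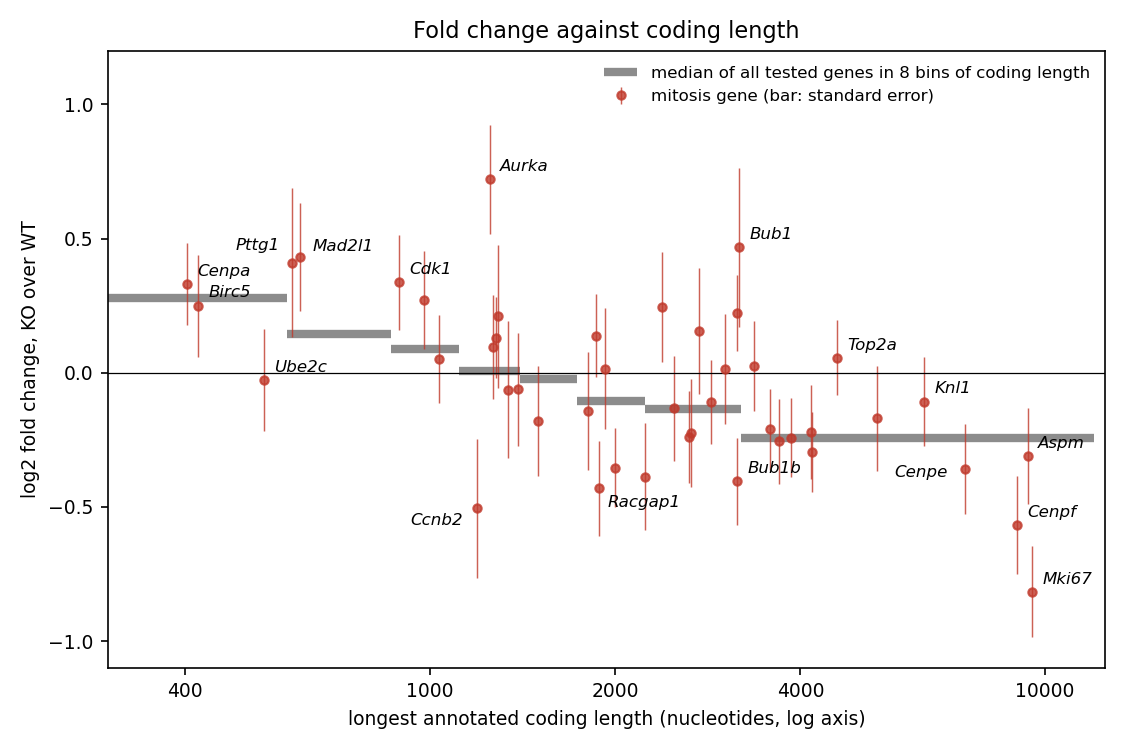
Log2 fold change of the 45 mitosis genes, KO over WT, against their coding length on a log axis, with standard errors as bars. Grey segments give the median of all tested genes in each of 8 bins of coding length (the last runs beyond the plot). Members run from 0.33 for Cenpa at 402 nucleotides to -0.82 for Mki67 at 9531 nucleotides, with Aurka (0.72) and Ccnb2 (-0.51) off the trend.

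The pattern was present in every library. In knockout libraries 1, 2 and 3 the mean deviation of log2 CPM from the mean of all 6 libraries was lower for the 22 members of longer than for the 22 of shorter coding sequence, by -0.11, -0.09 and -0.16. In wild-type libraries 1, 2 and 3 the longer members were higher, by 0.09, 0.17 and 0.08. Over the members, Spearman's rho of this deviation with coding length was -0.45, -0.40 and -0.58 in knockout libraries 1, 2 and 3 and 0.45, 0.40 and 0.28 in wild-type libraries 1, 2 and 3. Over all genes with a coding sequence the values were -0.22, -0.29 and -0.17 in the knockout and 0.18, 0.23 and 0.11 in the wild-type libraries. Deviations of the groups mirror each other, since they are taken from a shared mean. The share of counts held by the 5 most abundant entries also separated the groups, at 77.3% to 78.9% in knockout and 70.7% to 75.3% in wild-type libraries. Genotype and these features of the libraries cannot be told apart in this design.

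**Figure D4:**
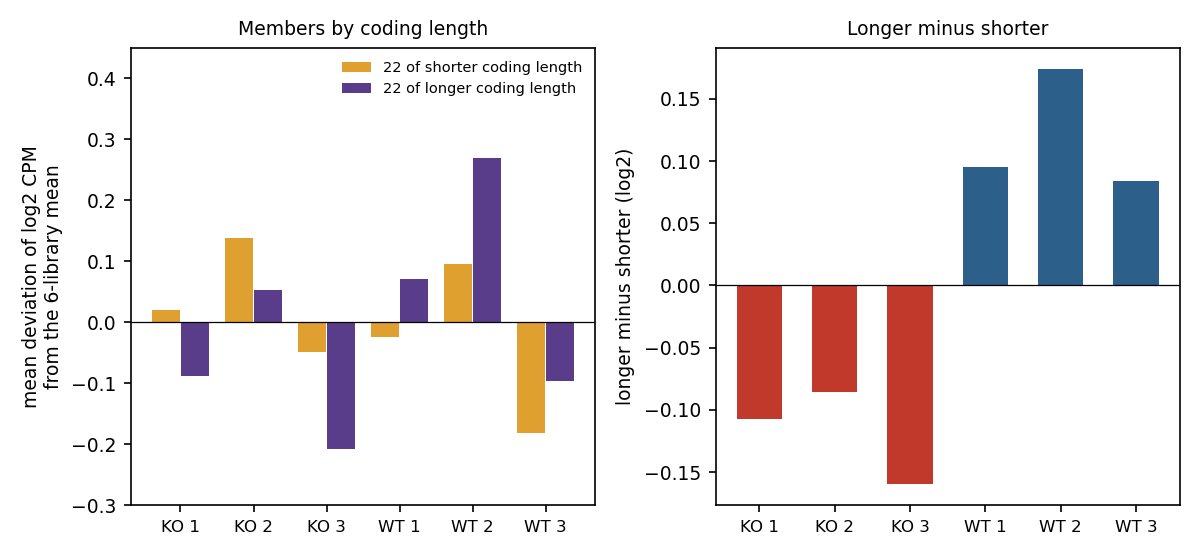
Left, mean deviation of log2 CPM from the mean of the 6 libraries for the 22 mitosis genes of shorter and the 22 of longer coding length, in each KO and WT library. Right, the longer minus the shorter, below 0 in the 3 KO and above 0 in the 3 WT libraries.

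When the trends of each library with longest transcript length and GC content were taken out, the log2 fold change was -0.63 for Mki67 (adjusted p = 0.189 in edgeR's test) and 0.59 for Aurka (adjusted p = 0.294). Neither passed. Of the 45 members 0 passed as lower after this correction, where 0.00661% of all genes did. Over the members, Spearman's rho with coding length was -0.43 after this correction. Their median was -0.11, beside -0.03 over all genes, and 28 of 45 were below 0, where 53.5% of all genes were. At an unadjusted p under 0.05, 5 members were lower (6.50% of all genes) and 3 higher (5.25% of all genes). The GC content of the members' longest transcripts was lower than that of all genes, with medians of 45.3% and 49.1%.

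The summed level of the 45 genes was 1429, 1649 and 1399 CPM in knockout libraries 1, 2 and 3, against 1657, 1925 and 1545 CPM in wild-type libraries 1, 2 and 3. The groups overlapped, and the means were 1492 ± 136 CPM in knockout and 1709 ± 196 CPM in wild type (SD, n = 3 each). Mki67 alone held 13.5% ± 1.46 of this sum in knockout and 20.8% ± 1.86 in wild type, a share of reads that grows with transcript length and not a share of molecules. Without Mki67, left out after its value was seen, the sums were 1291 ± 112 CPM in knockout and 1354 ± 163 CPM in wild type, closer than the spread between replicates. With each member counting alike, the mean deviation of log2 CPM was -0.02 ± 0.12 in knockout and 0.02 ± 0.16 in wild type.

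Within each group most members shared the same high and low libraries. Knockout library 2 lay above the knockout mean for 37 of 45 members and knockout library 3 for only 7. Wild-type library 2 lay above the wild-type mean for 35 members and wild-type library 3 for only 8. The median deviation of the members from their group mean was 0.15 in both high libraries, -0.11 in knockout library 3 and -0.16 in wild-type library 3, while that of all genes lay between 0.00 and 0.01 in each of the 6 libraries. The difference between the groups in the module as a whole was thus smaller than the differences between libraries of 1 group. The members nevertheless had a lower median SD of log2 CPM, 0.16 in knockout and 0.24 in wild type, beside 0.25 and 0.37 over all genes tested. Members and all genes were not matched for abundance, so it was not separated from this difference. Each member had at least 79 counts per library, while the minimum count of the filter was 10.

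**Figure D5:**
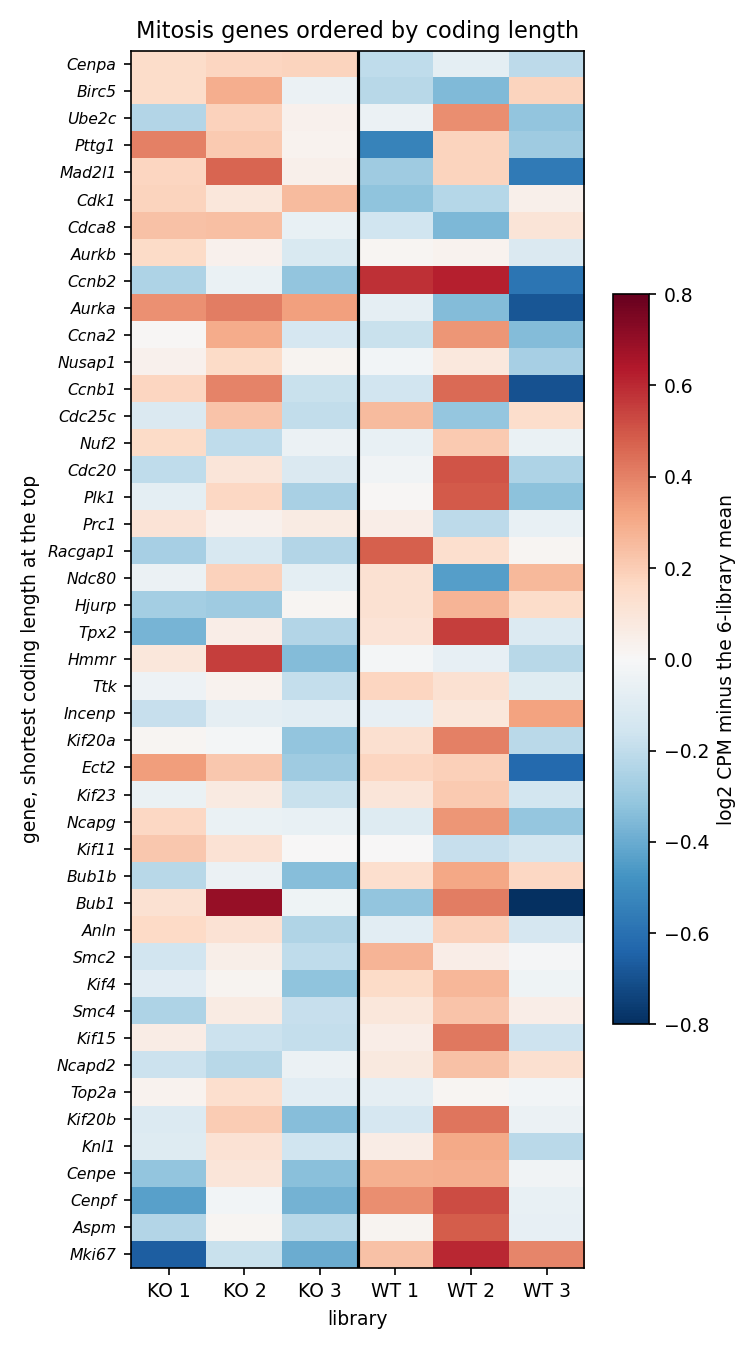
Deviation of log2 CPM from the mean of the 6 libraries for the 45 mitosis genes, in rows from the shortest to the longest coding length, and KO and WT libraries in columns. Red is higher and blue lower, and colours end at 0.8 either way, which only Bub1 in WT library 3 passes. KO library 2 and WT library 2 are high and KO library 3 and WT library 3 low across most rows, and in the bottom rows (Cenpf, Aspm, Mki67) the KO libraries are lower on average, without overlap only for Mki67.

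Further lists of cell division genes were read beside the module. Of 57 further genes of kinetochore, spindle and cytokinesis, 0 passed edgeR's test when adjusted over all genes. At an unadjusted p under 0.05, 6 of them were higher and 3 lower, beside 7.53% and 7.66% of all genes, and the median log2 fold change was 0.13. The lowest p belonged to the kinesin gene Kif22 (10.1 ± 2.30 CPM in knockout, 5.60 ± 1.19 in wild type), the kinetochore gene Spc24 (11.6 ± 1.74 and 5.98 ± 2.56) and the scaffold gene Iqgap3 (11.95 ± 1.11 and 17.9 ± 2.21; SD, n = 3 each). Their edgeR adjusted p-values were 0.143, 0.155 and 0.161. Of 17 genes that control entry into mitosis 0 passed over all genes. Ran had the lowest p of them, the gene of a GTPase that guides spindle assembly (59.4 ± 7.80 CPM in knockout, 36.8 ± 3.89 in wild type; adjusted p = 0.0865 in edgeR's test). Next came Pkmyt1, the gene of a kinase that inhibits CDK1 (6.16 ± 0.792 and 11.1 ± 0.822; adjusted p = 0.0971), and the tubulin gene Tuba1b (125 ± 16.3 and 85.8 ± 5.49; adjusted p = 0.131). For each of these 3, which were named for their low p, the groups did not overlap. Of the 17 genes, 4 had all knockout libraries above and 2 below all wild-type libraries, beside 11.3% and 9.56% of all tested genes.

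Among 16 genes of the complexes that regulate the G2/M promoters, 0 passed over all genes, 12 lay below 0, beside 50.5% of all genes, and the median log2 fold change was -0.22. E2f4, a DREAM subunit, averaged 10.6 ± 1.17 CPM in knockout and 21.6 ± 7.14 CPM in wild type without overlap (adjusted p = 0.0879 in edgeR's test). Nfyc, a subunit of the CCAAT-binding factor, averaged 3.22 ± 0.615 and 5.28 ± 0.833 CPM, and E2f5 4.93 ± 0.382 and 3.11 ± 0.433 CPM (SD, n = 3 each), with edgeR adjusted p-values of 0.254 and 0.276. Foxm1 and Mybl2, which encode the activators of these promoters and were named after their values were seen, had log2 fold changes of -0.50 and -0.51, with adjusted p-values of 0.417 and 0.421.

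The remaining lists also had 0 members that passed over all genes. For the anaphase-promoting complex (17 genes) the median log2 fold change was 0.09, with lowest p for Anapc13, Anapc1 and Ube2s, at -0.59, -0.35 and 0.71. Cohesin and condensin subunits outside the module (15 genes) had a median of -0.01, with Ncaph2 at 0.59, Smc1a at -0.31 and Nipbl at -0.28. The 40 genes of S phase and replication had a median of 0.07, with lowest p for Uhrf1 (-0.66), Prim1 (0.42) and Dut (0.43). Their summed level was 582 ± 55.7 CPM in knockout and 574 ± 44.8 CPM in wild type (SD, n = 3 each). For the 12 measured cell cycle inhibitors and differentiation genes the median was -0.08, with Btg1 at 0.46, Klf4 at -0.36 and Btg2 at 0.32.

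Of the markers of crypt cell types and of cells outside the gate, 0 passed edgeR's test over all genes. At an unadjusted p under 0.05, 7 of 10 Paneth markers were higher, beside 7.53% of all genes. In the same test 4 of 12 enteroendocrine, 4 of 9 tuft and 3 of 9 goblet markers were lower, beside 7.66% of all genes. The part of these cell types in the values of the mitosis genes was not tested. Paneth markers, from cells that do not divide, summed to 1898 ± 808 CPM in knockout and 968 ± 243 CPM in wild type (1171 to 2768 and 689 to 1134 CPM). Of the 10, 1 had a log2 fold change below 0, where 50.5% of all genes did. Their longest transcripts were short, with a median of 751.5 nucleotides. In the eighth of all tested genes with the shortest transcripts the median log2 fold change was 0.26. The Paneth median was 0.86, and 0.65 after the length and GC correction. Enteroendocrine markers summed to 635 ± 107 and 1010 ± 141 CPM, with 11 of 12 below 0, and tuft markers to 63.3 ± 24 and 116 ± 20.3 CPM, with 9 of 9 below 0. Stem cell markers summed to 1471 ± 407 CPM in knockout and 1281 ± 260 CPM in wild type, with 8 of 15 below 0. Goblet markers summed to 2411 ± 114 CPM in knockout and 3054 ± 1827 CPM in wild type, with 5 of 9 below 0. Without wild-type library 3, left out after its value was seen, the wild-type mean was 2038 CPM, so the direction of the sum rested on that library. For 2 of the 9, Atoh1 and Spdef, all knockout libraries lay below all wild-type libraries, where 9.56% of tested genes did so. Stem cell and goblet sums overlapped between the groups, as did those of enterocyte markers, at 995 ± 229 and 991 ± 107 CPM (SD, n = 3 each). Of markers outside the gate, 8 leukocyte genes summed to 56.8 to 158 CPM in knockout and 22.8 to 176 CPM in wild-type libraries, and 9 mesenchymal genes to 16.7 to 33.9 and 5.61 to 42.6 CPM. The endothelial gene Pecam1 had 21 counts over the knockout and 46 over the wild-type libraries, and Cdh5 had 1 and 0. Ptprc, which encodes CD45, averaged 1.42 ± 0.335 CPM in knockout and 2.77 ± 0.567 CPM in wild type.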

How the data were processed

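Per the labels' protocols, RNA of 6 samples was isolated (RNeasy Plus Micro), amplified by Ovation Pico WTA V2 and made into Nextera DNA Flex libraries. The authors deposited raw read counts per gene, not normalized. The submitters' processing notes name STAR 2.6.1, HTSeq and mm10, but no strand setting or annotation release is stated. Symbols, coordinates, lengths and GC content came from GENCODE M21 of the same build, which lacked 13 of 28564 identifiers; 0 columns had no sample.

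Counts were tested in R 4.3.3 with edgeR 4.0.16: filterByExpr (minimum count 10, total 15), TMM scaling, glmQLFit and glmQLFTest on genotype alone, Benjamini-Hochberg adjustment over 15122 genes and a threshold of 0.05. The common biological coefficient of variation was 0.298. The standard error of a log2 fold change is its size divided by the square root of F. Log2 CPM used a prior count of 2. Length and GC trends were fitted per library with mgcv 1.9.3 (10 basis functions) and entered as offsets. DESeq2 1.42.0 and limma 3.58.1 were alternatives. The fit was also run on simulated counts, and the outcome is not reported here. Counts of libraries of 1 group differed beyond sampling noise (chi-square over degrees of freedom 7.60 to 54.8).

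The members and gene lists were chosen with earlier results of these data known. Values in every library are given for Mki67, Aurka, the member of lowest p in each role group, the longest and shortest member and those of highest and lowest fold change. Up to 3 genes of lowest p are named per pathway list, and others are marked where it matters; Bub1 is shown in full by choice after its values were seen. Counts carry no molecular identifiers. P-values measure the spread between samples the labels call biological replicates.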

Additional observations from a re-analysis of the deposited data

How the results depend on the processing

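Over all genes the count of 26 called was 1 with DESeq2 size factors, upper-quartile scaling, without the 5 most abundant entries, or with a length offset or a length and GC offset. It was 11 with the replicate block and the length and GC offset together, 56 with limma-voom, 117 with at least 1 CPM in 3 libraries, 173 with the replicate block, 581 with the DESeq2 Wald test and 629 with no filter, and 0 to 358 without each library in turn (358 without wild-type library 3). The count of 0 mitosis genes was 3 with the DESeq2 Wald test (Aurka, Cenpf, Mki67), 1 (Mki67) with limma-voom, no filter, 1 CPM in 3 libraries or the replicate block, and 0 to 2 without each library (2 without wild-type library 3, Ccnb2 and Mki67). The cause was not tested.

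Replicate numbers are those of the sample titles; the deposited columns of knockout libraries 2 and 3 are numbered 3 and 4. The numbers were not taken as pairs. Over all tested genes, deviations from the group means of same-numbered libraries correlated at 0.04, 0.06 and 0.01. Knockout libraries 1 and 2, but not 3, correlated best with their own number. Over the mitosis genes, however, the order by number was the same in both groups. In knockout libraries 1, 2 and 3, 18, 37 and 7 of 45 members lay above the group mean, and 19, 35 and 8 in wild-type libraries 1, 2 and 3. The labels do not say that same-numbered libraries share a litter or a batch. With the block on the title numbers, the edgeR adjusted p of Mki67 was 0.0183. The median of the members was -0.17 to 0.02 without each library, above 0 only without wild-type library 2. Scaling moved the median of all genes by under 0.1. Spearman's correlation of fold change with longest transcript length over the members was -0.093 with the length offset, -0.17 with length and GC, -0.21 with the block added, -0.062 with median transcript length, -0.25 with the exon union and -0.56 with coding length, which was -0.36, -0.43 and -0.46 under the same 3 offsets. The log2 ratio of summed CPM was -0.20, and -0.039 with each member counting alike.

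Signs changed for 15 members whose log2 fold changes lay between -0.18 and 0.24. With DESeq2 size factors and with the DESeq2 Wald test Ndc80 was at -0.0017 and Ncapg at -0.0037. With the length offset Aurkb was at -0.085 and Knl1 at 0.057, with length and GC Aurkb at -0.064, Ndc80 at -0.027 and Ncapg at -0.089, and with the block added -0.066, -0.0053 and -0.054. Leaving out single libraries gave -0.013 to 0.12 for Aurkb, -0.12 to 0.22 for Ncapg, -0.044 to 0.15 for Anln, -0.17 to 0.17 for Ube2c, -0.038 to 0.32 for Ccna2, -0.18 to 0.16 for Ndc80, -0.16 to 0.024 for Nuf2, -0.010 to 0.44 for Hmmr, -0.22 to 0.038 for Cdc25c, -0.31 to 0.094 for Plk1, -0.23 to 0.0197 for Knl1, -0.32 to 0.0146 for Kif20b, -0.33 to 0.059 for Cdc20, -0.026 to 0.55 for Ccnb1 and -0.064 to 0.32 for Ect2. Of 765 gene values under alternatives 719 kept direction and side of the threshold. Each member had at least 79 counts per library. How far depth and how far the spread between 3 libraries limited the comparison was not tested.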

Other observations

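Wild-type library 3 was the lowest of the 6 libraries for 14 members, and wild-type library 2 the highest for 24. The members with the widest spread among wild-type libraries included Ccnb2, Bub1 and Ccnb1, named after their values were seen. Ccnb1 had 17.4, 20.3 and 13.6 CPM in knockout libraries 1, 2 and 3, against 13.8, 21.1 and 9.46 CPM in wild-type libraries 1, 2 and 3.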
